A study of Mus musculus with 12 samples.

Results

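The lateral habenula of mice that had gone through social defeat was compared with that of mice that had not, and the 2 outcomes of defeat were read side by side so that a change present in both could be told from a change present in 1 of them. The defeated mice were either stress-susceptible or stress-resilient. All 12 libraries of the series enter, 8 from defeated mice (4 susceptible and 4 resilient) and 4 from non-defeated mice. Of the 17416 genes in the table, 17111 had enough reads to be tested.

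All 3 groups were C57BL/6 mice aged 9 weeks, with no transgene or drug named in the labels, and social defeat is the only treatment they give. Tissue was punched from slices under a microscope, RNA was amplified from a picogram-scale input, and full-length cDNA was sequenced. The labels name the defeated groups by outcome and give neither the defeat schedule nor the sex of the mice. They do not say that the libraries of a group came from separate mice, but the social avoidance sheet lists each library name under its own mouse ID. P-values measure only the spread between these samples, in which animal and technical variation cannot be told apart.

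The lateral habenula is a small, mostly glutamatergic nucleus above the thalamus that is excited by punishment and by missing rewards. Its axons reach the rostromedial tegmental nucleus, the ventral tegmental area and the raphe, where they curb dopamine and serotonin neurons. Stress raises burst firing of habenular neurons in rodents, and habenular hyperactivity is a known correlate of depression-like behaviour. Chronic social defeat, in which a mouse is placed with a larger aggressive one, leaves some mice avoiding others (susceptible) while others keep approaching (resilient).

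Markers of the lateral habenula were present in every group, of which Gpr151, Slc17a6 and Pcdh10 were chosen after their values were seen. Gpr151, an orphan receptor of habenular neurons, averaged 386 ± 15.2 CPM in susceptible, 485 ± 220 CPM in resilient and 394 ± 144 CPM in non-defeated libraries (SD, n = 4 each; CPM, reads per 1000000 reads assigned to genes). Slc17a6, the vesicular glutamate transporter of these neurons, averaged 389 ± 18.2 CPM in susceptible, 397 ± 58.3 CPM in resilient and 397 ± 35.1 CPM in non-defeated libraries. Pcdh10, a protocadherin enriched there, averaged 103 ± 21.7, 98.6 ± 16.0 and 103 ± 7.56 CPM in the same 3 groups. Syn2, a synapsin on the same list, varied more, with 101 ± 52.9, 177 ± 50.9 and 75.9 ± 19.2 CPM in these groups. The 12 markers of the nucleus had a median difference of -0.04 on the log2(CPM + 1) scale, with 3 higher and 9 lower in defeated mice, where 51.7% of all tested genes were higher.

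Depth ran from 33.3 M to 47.7 M reads (M, 1000000 reads), and 15510 to 17086 genes had a read in a library. The interaction ratio of the social avoidance test was 0.13 to 0.69 in susceptible mice, 1.08 to 2.24 in resilient mice and 1.12 to 1.84 in non-defeated mice. Resilient replicate 4 and non-defeated replicates 3 and 4 correlated least with the rest on average, at 0.933, 0.935 and 0.932, against 0.940 to 0.953 elsewhere. Library titles carry a letter whose meaning the labels do not give: it is N for susceptible replicates 3 and 4 and for all resilient libraries, and H for susceptible replicates 1 and 2 and for all non-defeated ones. The letter and defeat can therefore be separated only within the susceptible group, and values for letter H alone are given below.

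No gene passed the test of defeated against non-defeated mice over the whole table. Each gene was tested with limma-trend on log2(CPM + 1), as the mean of the susceptible and resilient groups minus the non-defeated group, and every log2 difference below is on that scale, which understates the change of scarce genes, with its standard error (SE). Of 17111 genes, 0 (0.0%) passed a Benjamini-Hochberg adjusted p of 0.05 in either direction, and the edgeR quasi-likelihood test and limma voom with quality weights also called 0. Without adjustment, a p under 0.05 was reached by 972 genes (5.68%), by 564 with a higher (3.3%) and 408 with a lower level (2.38%) in defeated mice. DESeq2 called 34, 25 higher and 9 lower, of which 16 had at least 1 library without a read. The smallest adjusted p was 0.106, for Brs3, and the next was 0.643. The genes below are thus those that lead the comparison, and none of them passed its threshold in limma-trend. DESeq2 called 13 of the 24 named by rank, which were picked by small p in these same data. They are Abcc4, Ctnnd2, Brd7, Mtmr1, Sik3, Sh3d19, Adcy2, Ispd, Brs3, mt-Rnr1, Kat6a, Rps2 and Vma21.

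Changes with the same direction in both defeated groups were then counted. In 12163 genes (71.1%) the susceptible and the resilient mean lay on the same side of the non-defeated mean, a count from which nothing is read, since both means are set against the same 4 libraries. All 8 defeated libraries lay above all 4 non-defeated ones in 33 genes (0.193%) and below them in 31 genes (0.181%), together 64 genes (0.374%), of which 58 are protein-coding. That count grows when a library is left out, and stood at 288 without non-defeated replicate 1, 193 without replicate 2, 165 without replicate 3 and 174 without replicate 4 of that group. It was 137 without resilient replicate 4, and 107, 100 and 109 without susceptible replicates 1, 2 and 4. Groups of 8 and 4 libraries drawn at random would also separate some genes of so many, and how many was not tested. The count is thus not read as more than such draws give. It and the lack of overlap in single genes below are descriptions only. The median log2 difference over all tested genes was 0.01, with quartiles of -0.17 and 0.21.

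The genes that averaged more in both defeated groups are given by role, a grouping made after they were ranked. No role was tested as a set. The first role concerns cyclic AMP. Adcy2 encodes an adenylyl cyclase of brain that makes cyclic AMP. It stood at 26.5, 19.9, 56.1 and 20.6 CPM in susceptible, 59.5, 35.6, 48.4 and 21.5 CPM in resilient and 17.6, 14.7, 7.63 and 11.9 CPM in non-defeated libraries. All 8 defeated libraries were above the highest non-defeated one, with susceptible replicates 2 and 4 and resilient replicate 4 near it. The log2 difference was 1.34 ± 0.33 (SE; limma-trend, adjusted p = 0.854), 1.11 ± 0.38 in susceptible and 1.56 ± 0.38 in resilient mice. The gene (ENSMUSG00000021536) lies on chromosome 13, from 68620043 to 68999541 of GRCm38.

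Abcc4 encodes an exporter of the ATP-binding cassette family that carries cyclic nucleotides and other organic anions out of cells. Its levels were 7.70, 5.75, 2.23 and 7.51 CPM in susceptible, 4.73, 6.34, 4.66 and 15.8 CPM in resilient and 2.01, 0.497, 0.681 and 0.702 CPM in non-defeated libraries. The groups did not overlap, but susceptible replicate 3 and non-defeated replicate 1 lay next to each other, and resilient replicate 4 was the highest. Abcc4 had a log2 difference of 1.91 ± 0.39 (SE; limma-trend, adjusted p = 0.643), 1.74 ± 0.45 in susceptible and 2.07 ± 0.45 in resilient mice. The gene (ENSMUSG00000032849) spans 118482692 to 118706219 on chromosome 14.

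Sik3 encodes a salt-inducible kinase, which protein kinase A phosphorylates and which in mice sets sleep need. It stood at 17.7, 23.5, 59.1 and 26.2 CPM in susceptible, 47.7, 52.2, 63.0 and 33.4 CPM in resilient and 10.1, 15, 13.2 and 22.2 CPM in non-defeated libraries. All resilient libraries were above the non-defeated ones, while susceptible replicate 1 lay within their range. Its log2 difference was 1.28 ± 0.30 (SE; limma-trend, adjusted p = 0.849), 0.92 ± 0.35 in susceptible and 1.65 ± 0.35 in resilient mice.

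**Figure D1:**
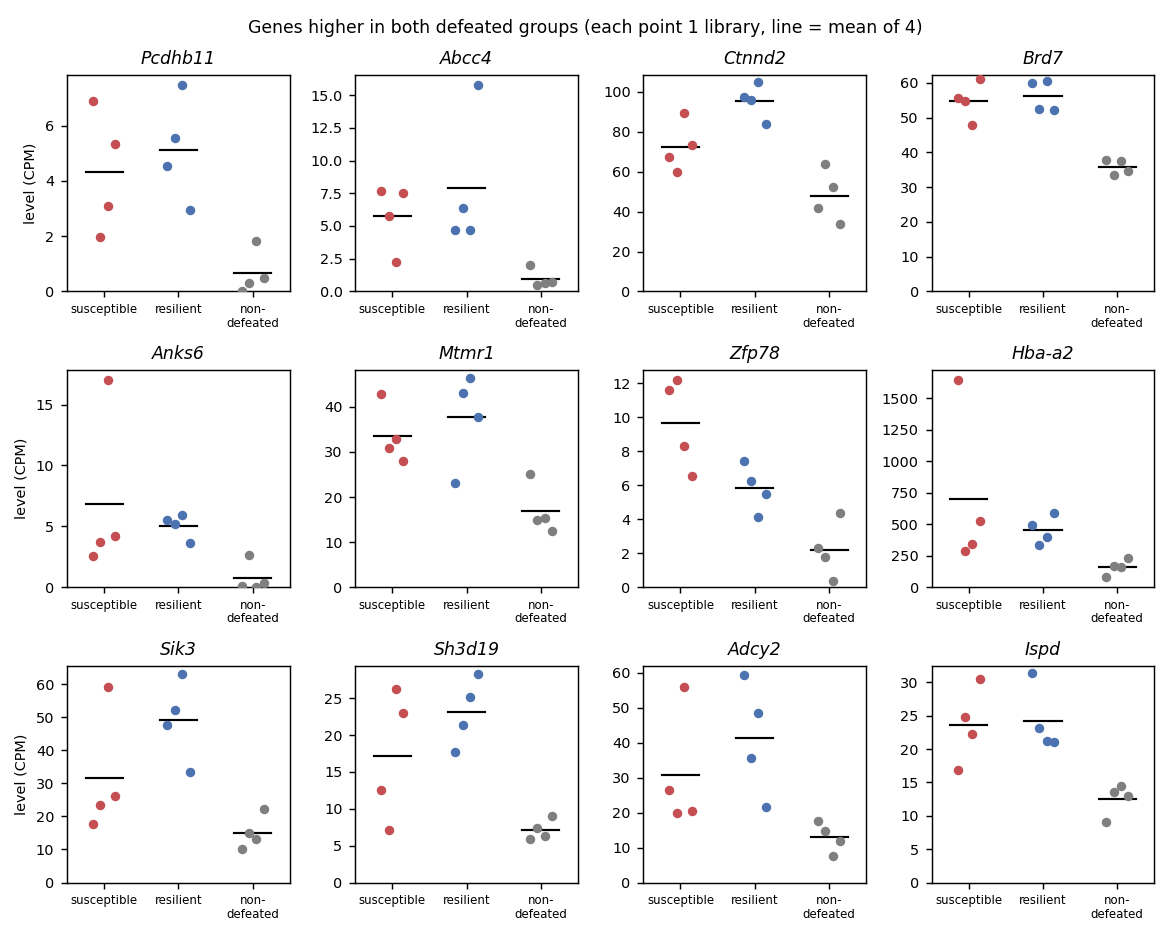
Levels in CPM of the 12 genes with the smallest p among those higher in both defeated groups, 1 panel a gene, for susceptible (red), resilient (blue) and non-defeated (grey) libraries; each point is 1 library and each line the mean of 4. In the Brd7 panel all 8 defeated libraries lie between 47.9 and 61.0 CPM and the 4 non-defeated ones between 33.5 and 37.7 CPM.

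Chromatin control was represented by Brd7, whose levels were even within each group. Brd7 is a bromodomain protein of the PBAF chromatin remodelling complex. It stood at 55.6, 54.7, 47.9 and 61.0 CPM in susceptible, 59.8, 52.6, 60.6 and 52.2 CPM in resilient and 37.7, 33.5, 37.6 and 34.6 CPM in non-defeated libraries. The lowest defeated library was clear of the highest non-defeated one, and the susceptible and resilient means of 54.8 ± 5.37 and 56.3 ± 4.51 CPM (SD, n = 4 each) were close. Its log2 difference was 0.62 ± 0.14 (SE; limma-trend, adjusted p = 0.781), 0.60 ± 0.16 in susceptible and 0.64 ± 0.16 in resilient mice. The gene (ENSMUSG00000031660) lies on the minus strand of chromosome 8, from 88331039 to 88362194.

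The sequences just upstream of Abcc4 and Brd7 are shown because both genes separated the groups in every library and both windows hold GC boxes. Each is the 250 bases before the gene's start in RefSeq's GRCm38.p6 table, read 5′ to 3′ on the gene's strand, at chr14:118706220-118706469 for Abcc4 and chr8:88362173-88362422 for Brd7. Capitals mark GC boxes, GGGCGG or its reverse complement.
Abcc4: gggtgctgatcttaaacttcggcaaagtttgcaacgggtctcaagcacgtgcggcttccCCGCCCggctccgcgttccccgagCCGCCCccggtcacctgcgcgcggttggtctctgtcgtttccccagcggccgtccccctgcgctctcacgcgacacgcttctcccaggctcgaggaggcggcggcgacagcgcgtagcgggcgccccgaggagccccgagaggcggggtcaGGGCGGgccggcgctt
Brd7: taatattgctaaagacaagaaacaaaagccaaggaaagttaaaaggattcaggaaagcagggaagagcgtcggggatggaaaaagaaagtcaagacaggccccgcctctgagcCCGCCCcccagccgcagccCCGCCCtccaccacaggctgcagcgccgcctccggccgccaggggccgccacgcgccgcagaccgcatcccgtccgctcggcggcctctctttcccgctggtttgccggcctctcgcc
Abcc4 has 3 GC boxes in its window and Brd7 has 2. Of the 64 genes whose groups did not overlap, 47 had a window that could be searched, and 21 of the 47 held a GC box, against 32.7% of the 32851 promoters of the table. The cyclic AMP response element TGACGTCA was in 1 of the 47, that of Arl4d, against 1.55% of all promoters. The palindromic glucocorticoid receptor element was in 0 of the 47, against 0.387% of all. AGATAA, the GATA motif, was in 4 (9.99% of all) and TATAAA in 4 (12.4% of all), both strands being searched for each motif. Overlap between matches of different motifs was not examined. The 47 windows are 1 per gene, while the 32851 promoters can include more than 1 window of a gene. They are also not limited to genes tested here. The shares are thus of unlike sets, and no enrichment is read from them. A match in these letters is a description of the window only.

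Cell adhesion genes were the next group. Pcdhb11 encodes a protocadherin of the clustered beta family, single-exon genes whose products act in recognition between neurites. It stood at 6.90, 1.97, 3.08 and 5.32 CPM in susceptible, 4.53, 5.54, 7.47 and 2.94 CPM in resilient and 0.00, 0.298, 1.84 and 0.476 CPM in non-defeated libraries. Groups did not overlap, though susceptible replicate 2 and non-defeated replicate 3 almost met, and the neighbouring protocadherins are similar enough in sequence for reads to be shared between them. The log2 difference was 1.82 ± 0.38 (SE; limma-trend, adjusted p = 0.643), 1.70 ± 0.43 in susceptible and 1.95 ± 0.43 in resilient mice.

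Ctnnd2 encodes delta-catenin, a neuronal protein of adherens junctions and dendritic spines. It averaged 72.3 ± 12.5 CPM in susceptible, 95.5 ± 8.90 CPM in resilient and 47.9 ± 13.0 CPM in non-defeated libraries (SD, n = 4 each). The susceptible range of 59.6 to 89.1 CPM reached below the highest non-defeated library, at 63.7 CPM, while all resilient libraries were above it. Its log2 difference was 0.81 ± 0.18 (SE; limma-trend, adjusted p = 0.773). Ispd encodes the enzyme that makes CDP-ribitol for the sugar chains of dystroglycan, a receptor for matrix proteins. It stood at 16.8, 24.8, 22.2 and 30.5 CPM in susceptible, 31.4, 23.2, 21.2 and 21 CPM in resilient and 9.06, 13.5, 14.4 and 13.0 CPM in non-defeated libraries. All 8 defeated libraries were above the non-defeated ones, with a log2 difference of 0.88 ± 0.22 (SE; limma-trend, adjusted p = 0.854), 0.85 in susceptible and 0.90 in resilient mice.

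The remaining named genes on the higher side have roles in lipid phosphates, cilia, adaptors and transcription. Mtmr1, a phosphatase of phosphoinositides, averaged 33.6 ± 6.46 CPM in susceptible, 37.7 ± 10.3 CPM in resilient and 17.0 ± 5.56 CPM in non-defeated libraries, and only resilient replicate 1, at 23.2 CPM, lay within the non-defeated range, which ended at 25.1 CPM. Anks6, an ankyrin-repeat protein of the primary cilium, was at 2.54, 3.72, 17.0 and 4.22 CPM in susceptible, 5.50, 5.20, 5.90 and 3.64 CPM in resilient and 0.0875, 2.64, 0.00 and 0.301 CPM in non-defeated libraries. Susceptible replicate 3 was far above the rest, and non-defeated replicate 2 overlapped the lowest susceptible library. Sh3d19, an SH3-domain adaptor, ranged from 7.12 to 26.2 CPM in susceptible, from 17.7 to 28.3 CPM in resilient and from 5.87 to 8.97 CPM in non-defeated libraries. Zfp78, a zinc finger protein, ranged from 6.57 to 12.2 CPM in susceptible, from 4.14 to 7.41 CPM in resilient and from 0.371 to 4.36 CPM in non-defeated libraries. Susceptible replicate 2 lay within the non-defeated range of Sh3d19, and resilient replicate 3 within that of Zfp78. Log2 differences were 1.04 ± 0.24 for Mtmr1, 2.03 ± 0.46 for Anks6, 1.29 ± 0.31 for Sh3d19 and 1.55 ± 0.36 for Zfp78 (SE), with adjusted p of 0.781 to 0.854 in limma-trend.

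Blood cell genes were the list with the largest median of the 28 described. Of 8 markers 5 were tested, all 5 were higher in defeated mice, and in 3 of them all defeated libraries were above all non-defeated ones. Over all genes 51.7% were higher and 0.193% had that separation. The median log2 difference was 1.57 over the 5, 1.80 in susceptible and 1.37 in resilient mice, beside 0.01 over all genes. Hba-a2, an alpha-globin gene of red cells, stood at 1646, 288, 340 and 524 CPM in susceptible, 490, 332, 394 and 589 CPM in resilient and 76.7, 164, 161 and 232 CPM in non-defeated libraries. Every defeated library was above every non-defeated one, and susceptible replicate 1 was far above the others. Its log2 difference was 1.72 ± 0.40 (SE; limma-trend, adjusted p = 0.781).

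The other alpha-globin copy, Hba-a1, averaged 651 ± 601 CPM in susceptible, 409 ± 109 CPM in resilient and 163 ± 59.5 CPM in non-defeated libraries (SD, n = 4 each). The beta-globin genes Hbb-bs and Hbb-bt and the erythroid haem enzyme Alas2 had log2 differences of 1.48 ± 0.47, 1.57 ± 0.52 and 1.97 ± 0.50 (SE). Their adjusted p was 0.854 for each in limma-trend. A score of the list, which averages how far its genes lie from their own mean log2 levels, was -0.32 to 2.49 in susceptible, 0.00 to 1.06 in resilient and -2.05 to -0.71 in non-defeated libraries, so that all defeated libraries were above all non-defeated ones. Slc4a1 and S100a8, markers of red cell membranes and neutrophils, were not among the genes tested. In bulk tissue, more cells of a type and more RNA per cell cannot be told apart, and the part that blood left in the tissue has in these values was not tested.

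The upstream windows of the alpha-globin pair are shown because the copies are alike in sequence there. They are the 250 bases before each start, from RefSeq's GRCm38.p6 table, at chr11:32296242-32296491 for Hba-a2 and chr11:32283422-32283671 for Hba-a1, both on the plus strand.
Hba-a2: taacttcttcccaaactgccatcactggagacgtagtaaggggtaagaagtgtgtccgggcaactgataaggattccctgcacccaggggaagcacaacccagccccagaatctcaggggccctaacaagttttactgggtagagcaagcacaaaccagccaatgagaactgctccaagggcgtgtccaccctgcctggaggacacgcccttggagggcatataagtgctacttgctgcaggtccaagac
Hba-a1: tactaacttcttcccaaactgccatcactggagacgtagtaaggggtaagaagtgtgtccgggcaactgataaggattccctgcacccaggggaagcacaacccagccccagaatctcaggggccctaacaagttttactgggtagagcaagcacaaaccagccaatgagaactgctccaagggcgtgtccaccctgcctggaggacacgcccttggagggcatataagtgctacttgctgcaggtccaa
The windows share a stretch of 247 identical bases, from base 4 of the Hba-a1 window and base 1 of the Hba-a2 window. The transcripts themselves were not compared here. Where reads match both copies, their split between Hba-a1 and Hba-a2 depends on the counting, and that setting is not given in the sources used here.

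On the lower side the leading gene was Brs3, which was nearly unread in defeated mice. Brs3 encodes bombesin receptor subtype 3, an orphan receptor known for its role in energy balance in the hypothalamus. It had 0 reads in each of the 4 susceptible libraries, 0.541, 0.0968, 0.00 and 0.00 CPM in resilient libraries and 1.79, 1.67, 2.41 and 2.21 CPM in non-defeated libraries. The lowest non-defeated library was above every defeated one, and 6 of the 8 defeated libraries had no read. Against a floor of 3 reads pooled over the susceptible group, and 354 reads in the non-defeated group, the level was at least 107-fold lower in susceptible mice. The fitted log2 difference was -1.49 ± 0.21 (SE; limma-trend, adjusted p = 0.106), -1.59 ± 0.25 in susceptible and -1.40 ± 0.25 in resilient mice. Leaving out 1 library at a time moved its adjusted p between 0.0967 and 0.431. Genes without a read in any susceptible library numbered 63 of the 17111 tested.

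Brs3 (ENSMUSG00000031130) lies on chromosome X, from 57043074 to 57048758 on the plus strand. The 250 bases before it, chrX:57042824-57043073 of GRCm38.p6 in RefSeq's table, are shown as the leading gene's window, and none of the 5 motifs was found in it.
Brs3: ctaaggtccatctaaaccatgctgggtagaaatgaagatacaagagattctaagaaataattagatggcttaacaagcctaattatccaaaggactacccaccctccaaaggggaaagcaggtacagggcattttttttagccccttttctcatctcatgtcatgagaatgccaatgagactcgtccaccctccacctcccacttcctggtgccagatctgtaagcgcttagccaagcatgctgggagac
Among the 30 tested receptors for neuropeptides and neuromodulators, to which Brs3 belongs, 17 were higher and 13 lower. Their median was 0.09 (-0.07 without the 3 libraries of lowest correlation). Hcrtr2, the orexin receptor of arousal circuits, was the other leading member. It stood at 0.00, 3.60, 4.60 and 1.25 CPM in susceptible, 2.68, 2.40, 0.00 and 0.861 CPM in resilient and 5.67, 4.53, 5.98 and 5.14 CPM in non-defeated libraries. Susceptible replicate 3 was just above non-defeated replicate 2, and the other defeated libraries were below all non-defeated ones. Its log2 difference was -1.36 ± 0.47 (SE; limma-trend, adjusted p = 0.854).

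Nfatc2ip and Shq1 were lower in every defeated library than in any non-defeated one. Nfatc2ip encodes a partner of the transcription factor NFAT with SUMO-like domains. It stood at 0.573, 0.00, 0.00 and 0.0522 CPM in susceptible, 0.0676, 0.387, 0.0937 and 0.0556 CPM in resilient and 1.2, 2.21, 1.57 and 1.65 CPM in non-defeated libraries. Groups did not overlap, and susceptible replicate 1 was the highest defeated library. Its log2 difference was -1.21 ± 0.23 (SE; limma-trend, adjusted p = 0.643), -1.22 in susceptible and -1.2 in resilient mice. Shq1 encodes an assembly factor of H/ACA ribonucleoproteins, which guide pseudouridylation of ribosomal RNA. Its levels were 2.57, 1.95, 1.54 and 0.678 CPM in susceptible, 5.34, 5.45, 4 and 1.86 CPM in resilient and 7.07, 6.27, 10.9 and 9.27 CPM in non-defeated libraries. The defeated libraries were all below the non-defeated ones, with resilient replicate 4 among the susceptible ones, and with a log2 difference of -1.37 ± 0.33 (SE; limma-trend, adjusted p = 0.854), -1.83 in susceptible and -0.90 in resilient mice.

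Kat6a encodes a histone acetyltransferase known from leukaemia translocations and development. It stood at 15.3, 11.6, 7.78 and 10.7 CPM in susceptible, 15.6, 15.2, 15.2 and 18.3 CPM in resilient and 29.0, 20.2, 30 and 28.4 CPM in non-defeated libraries. All defeated libraries were below the lowest non-defeated one, replicate 2, which stood apart from its group. The log2 difference was -0.94 ± 0.22 (SE; limma-trend, adjusted p = 0.781), -1.19 ± 0.25 in susceptible and -0.69 ± 0.25 in resilient mice.

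Tshb and Slc4a9 were scarce genes. Tshb encodes the beta subunit of thyrotropin, a hormone of the pituitary and its pars tuberalis. It stood at 0.00, 0.00, 0.0531 and 0.00 CPM in susceptible, 0.00, 0.629, 0.0937 and 0.194 CPM in resilient and 2.01, 1.99, 3.51 and 0.426 CPM in non-defeated libraries. Resilient replicate 2 was above non-defeated replicate 4, and otherwise the groups were apart, with a log2 difference of -1.32 ± 0.29 (SE; limma-trend, adjusted p = 0.773). Of 7 pituitary hormone genes, Cga, Prl, Gh, Lhb and Fshb were not among the genes tested, and Pomc had a log2 difference of 0.23 ± 0.33. The median of the list, -0.55, thus comes from 2 genes of opposite sign, and it was 0.23 among genes with a mean of at least 1 CPM, -0.15 with a pseudocount of 5 and -1.53 with a pseudocount of 0.1. Slc4a9, an anion exchanger of the bicarbonate transporter family, ranged from 0.00 to 1.42 CPM in susceptible, from 0.00 to 0.917 CPM in resilient and from 0.895 to 4.46 CPM in non-defeated libraries. Its groups overlapped through non-defeated replicate 2, and its log2 difference was -1.39 ± 0.35 (SE; limma-trend, adjusted p = 0.854).

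**Figure D2:**
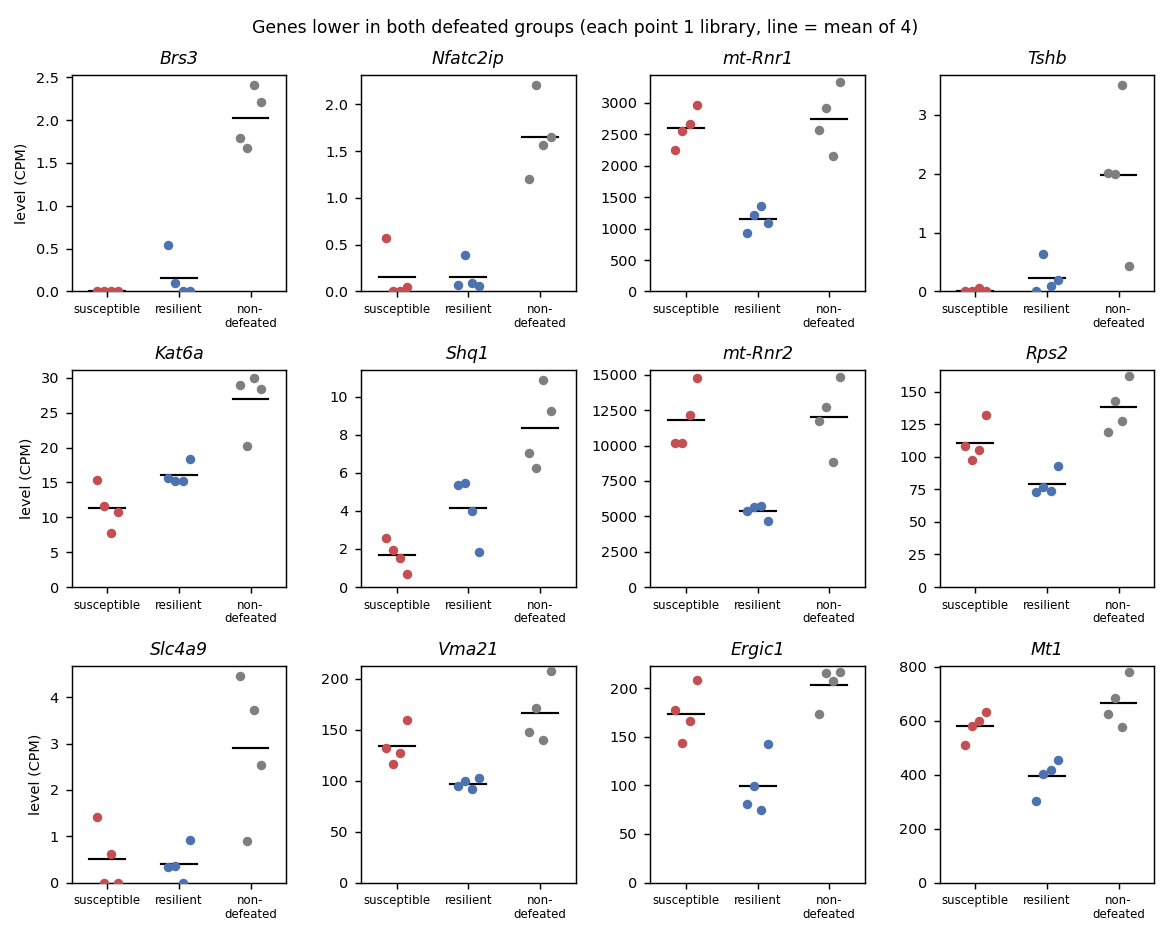
Levels in CPM of the 12 genes with the smallest p among those lower in both defeated groups, 1 panel a gene, for susceptible (red), resilient (blue) and non-defeated (grey) libraries; each point is 1 library and each line the mean of 4. Brs3 has no read in any susceptible library, while for mt-Rnr1, mt-Rnr2, Ergic1 and Mt1 the susceptible libraries overlap the non-defeated ones and the resilient libraries lie below both.

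The other 6 named genes on the lower side met the rule of a common direction with larger differences in resilient than in susceptible mice, but the test between these groups was passed by mt-Rnr1 and mt-Rnr2 only. The mitochondrial ribosomal RNAs mt-Rnr1 and mt-Rnr2, the RNA core of the mitochondrial ribosome, are these 2. For mt-Rnr1 the levels were 2244, 2555, 2659 and 2957 CPM in susceptible, 933, 1218, 1355 and 1093 CPM in resilient and 2562, 2911, 2150 and 3327 CPM in non-defeated libraries. All resilient libraries were below every library of the other groups, which overlapped. The log2 difference was -0.06 ± 0.16 in susceptible and -1.25 ± 0.16 in resilient mice (SE), and the susceptible minus resilient difference was 1.19 ± 0.16 (limma-trend, adjusted p = 0.0421). For mt-Rnr2 the same values were -0.02 ± 0.16, -1.15 ± 0.16 and 1.13 ± 0.16 (limma-trend, adjusted p = 0.0469).

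Ergic1, a cargo receptor between the endoplasmic reticulum and the Golgi, averaged 174 ± 26.8 CPM in susceptible, 99.2 ± 30.7 CPM in resilient and 203 ± 20.5 CPM in non-defeated libraries (SD, n = 4 each). Vma21, an assembly factor of the vacuolar proton pump, averaged 133 ± 18.1, 97.0 ± 4.99 and 166 ± 29.9 CPM in the same 3 groups. Mt1, a metallothionein that binds zinc and copper and is induced by glucocorticoids, averaged 580 ± 51.3 CPM in susceptible, 394 ± 65.3 CPM in resilient and 666 ± 88.0 CPM in non-defeated libraries. In each of these the resilient libraries were below all non-defeated ones and the susceptible libraries overlapped them. Rps2, a protein of the small ribosomal subunit with many processed pseudogenes that could share its reads, averaged 111 ± 14.7, 78.9 ± 9.20 and 138 ± 19.0 CPM, in the order susceptible, resilient and non-defeated. The log2 differences over all defeated mice were -0.64 ± 0.17 for Ergic1, -0.53 ± 0.13 for Vma21, -0.48 ± 0.13 for Mt1 and -0.55 ± 0.14 for Rps2 (SE; limma-trend, adjusted p = 0.854 for each). For susceptible minus resilient mice the adjusted p in limma-trend was 0.526 for Ergic1, 0.807 for Mt1 and 1.0 for Rps2 and Vma21, which were both at -0.31 in susceptible mice.

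**Figure D3:**
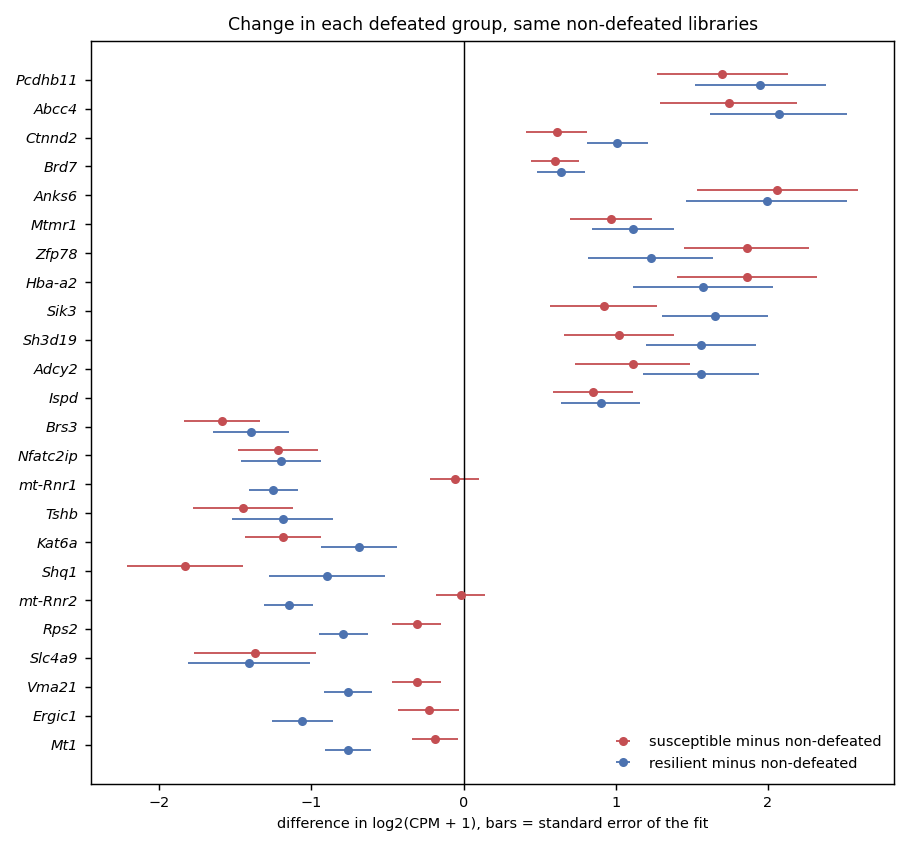
Log2 difference from the same 4 non-defeated libraries for the 24 named genes, in susceptible (red) and resilient (blue) mice, with bars of 1 SE of the fit; positive values mean a higher level in defeated mice. Brd7, Ispd, Anks6, Nfatc2ip and Slc4a9 have almost the same difference in both groups, while mt-Rnr1 is at -0.06 in susceptible and -1.25 in resilient mice.

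Whether the susceptible and resilient groups differed was tested gene by gene in the same fit. Of 17111 genes 9 (0.0526%) passed an adjusted p of 0.05, namely mt-Rnr1, mt-Rnr2, Capn3, mt-Nd6, mt-Nd2, mt-Nd5, mt-Atp8, mt-Atp6 and mt-Nd4, 8 of them encoded by mitochondrial DNA. Capn3, a calpain protease, averaged 7.16 ± 3.18 CPM in susceptible and 0.109 ± 0.128 CPM in resilient libraries, with 1.14 ± 1.12 CPM in non-defeated ones, so it too was no shared change. The count was 0 with any of the 8 defeated libraries left out and without non-defeated replicate 1 or 2, 2 without non-defeated replicate 4 and 10 without non-defeated replicate 3. For the same difference edgeR called 0 genes, voom 16 and DESeq2 37. Both groups are measured against the same non-defeated libraries, so a like difference in both is not 2 independent observations.

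Mitochondrial reads were lower in all resilient libraries than in any library of the other groups. They made up 9.79 ± 2.11% of reads in susceptible, 4.55 ± 0.449% in resilient and 9.24 ± 1.76% in non-defeated libraries (SD, n = 4 each). All 13 protein genes of mitochondrial DNA were lower in the mean of defeated mice, with a median log2 difference of -0.36, but that median was 0.17 in susceptible and -0.97 in resilient mice, and 3 of the 13 had 1 direction in both. With the title letter in the fit the median over all defeated mice was -0.77. mt-Nd3, a subunit of complex I, averaged 282 ± 118 CPM in susceptible, 93.0 ± 53.6 CPM in resilient and 333 ± 107 CPM in non-defeated libraries. mt-Co3, a subunit of complex IV, averaged 12516 ± 4019, 4986 ± 1303 and 12570 ± 2598 CPM in the same 3 groups. The 30 nuclear subunits of the same respiratory complexes had 12 higher and 18 lower, with a median of -0.05 (0.2 without the 3 libraries of lowest correlation). Of these, Uqcrc1 of complex III had a log2 difference of 0.30 ± 0.13 and Cox7c of complex IV one of -0.65 ± 0.26, with non-defeated replicate 4 at 98.8 CPM of Cox7c against 33.8 to 38.7 CPM in the rest of its group.

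Cytosolic ribosomal protein genes pointed 1 way. All 35 measured were lower in defeated mice, while 48.3% of all genes were lower. Of the 35, 34 had that direction in both groups, where 71.1% of all genes had 1 direction in both. The median log2 difference of the list was -0.31, -0.16 in susceptible and -0.43 in resilient mice. None passed the adjusted threshold in limma-trend, while Rps2 did in DESeq2 (adjusted p = 0.0302). An unadjusted p under 0.05 was reached by 13 of the 35, where 2.38% of all genes were lower at that p. Rps27, of the small subunit, averaged 13.7 ± 2.73 CPM in susceptible, 11 ± 3.21 CPM in resilient and 25.4 ± 13.5 CPM in non-defeated libraries, the last with replicate 4 at 45.2 CPM. Scores of the list were -0.15 to 0.30 in susceptible, -0.29 to -0.20 in resilient and -0.10 to 0.61 in non-defeated libraries. Non-defeated replicate 4 was the highest, and without it the median was -0.16. Without the 3 libraries of lowest correlation it was -0.10.

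**Figure D4:**
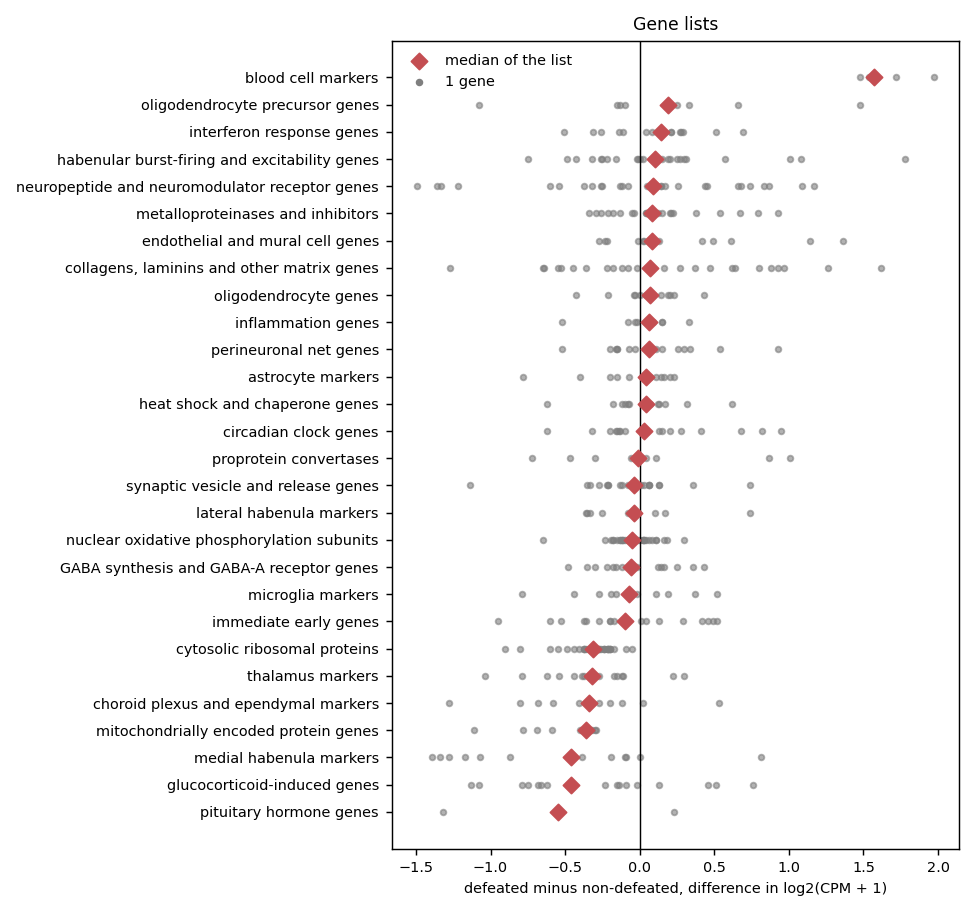
Log2 difference of defeated minus non-defeated mice for each gene of 28 lists (grey points) and the median of each list (red diamonds), sorted by median. Blood cell markers, at 1.57, stand apart on the higher side, most medians lie near 0.01, the median of all genes, and the lowest ones, down to -0.55, belong to pituitary (2 genes of opposite sign), glucocorticoid-induced, medial habenula and mitochondrial genes.

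Genes that glucocorticoids induce, a usual trace of stress hormone action, had a lower mean in defeated mice in most cases. Of 19 tested, 15 were lower and 4 higher, and 17 had 1 direction in both defeated groups, beside 71.1% of all genes. The median was -0.46, -0.19 in susceptible and -0.44 in resilient mice. None passed the adjusted threshold in limma-trend. At an unadjusted p under 0.05, 4 were lower and 1 higher, beside 2.38% and 3.3% of all genes. Mt1 was described above. Arl4d, a small GTPase of the ARF family, stood at 4.79, 7.64, 3.67 and 6.26 CPM in susceptible, 9.22, 8.91, 7.33 and 8.08 CPM in resilient and 13.5, 10.1, 16.6 and 10.4 CPM in non-defeated libraries. All defeated libraries were below all non-defeated ones, with a log2 difference of -0.79 ± 0.26 (SE; limma-trend, adjusted p = 0.854). Scores were -0.15 to 0.00 in susceptible, -0.40 to 0.34 in resilient and 0.12 to 0.34 in non-defeated libraries, and resilient replicate 4 alone reached the non-defeated range. With the title letter in the fit the median of the list was -0.15, and among libraries of letter H it was -0.14.

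Immediate early genes, which follow recent neuronal activity, had 8 of 19 higher and a median of -0.10, which was -0.32 without non-defeated replicate 1 and 0.13 with the title letter as a term. Fosb, a Fos family factor, averaged 0.286 ± 0.571 CPM in susceptible, 0.282 ± 0.190 CPM in resilient and 0.979 ± 0.650 CPM in non-defeated libraries, and Junb had a log2 difference of -0.53 ± 0.32. Their groups overlapped. Heat shock and chaperone genes had 8 of 14 higher with a median of 0.04, which was 0.16 with the title letter as a term. They were led by Hspa8, a constitutive chaperone, at 0.32 ± 0.12, with 0.10 in susceptible and 0.54 in resilient mice. Bag3, its co-chaperone, was at -0.62 ± 0.32. Circadian clock genes had 9 of 17 higher and a median of 0.03. Bhlhe41, a clock repressor, was at 0.68 ± 0.28 and Dbp, a clock output factor, at 0.95 ± 0.51. Levels of Dbp were 10.9 CPM in non-defeated replicate 4 and 106 to 163 CPM in the other 11 libraries.

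Genes of the series' title came next. Pcsk5, a proprotein convertase that activates precursor proteins by cleavage, stood at 11, 21, 19.4 and 27.5 CPM in susceptible, 14.3, 13.2, 4.52 and 7.22 CPM in resilient and 8.71, 5.17, 5.16 and 5.49 CPM in non-defeated libraries. Susceptible libraries were all above the non-defeated ones, and resilient libraries spanned their range. The log2 difference was 1.01 ± 0.33 (SE; limma-trend, adjusted p = 0.854), 1.5 ± 0.38 in susceptible and 0.51 ± 0.38 in resilient mice. Acan, the aggrecan core protein of perineuronal nets, had no read in non-defeated libraries and was at 0.0458, 4, 1.83 and 4.04 CPM in susceptible and 0.293, 0.436, 0.00 and 0.278 CPM in resilient libraries. With a floor of 3 reads pooled over the non-defeated group, its level was at least 135-fold higher in susceptible mice (366 reads) and at least 14.6-fold higher in resilient mice (41 reads). The fitted log2 difference was 0.93 ± 0.36 (SE; limma-trend, adjusted p = 0.854). Genes without a read in any non-defeated library numbered 63 of the 17111 tested.

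The families around these genes were mixed. Convertases had 4 of 9 higher with a median of -0.01, which was -0.2 among libraries of letter H. Pcsk4, a convertase known from germ cells, was at 0.87 ± 0.36. Metalloproteinases and their inhibitors had 14 of 22 higher with a median of 0.08, which was -0.25 without the 3 libraries of lowest correlation. Adamts5, which cleaves aggrecan, was at 0.93 ± 0.43, and Timp2, an inhibitor, at 0.79 ± 0.37. Among perineuronal net genes 8 of 15 were higher with a median of 0.06, with Hapln2, a link protein of nodes of Ranvier, at 0.34 ± 0.20. Collagens, laminins and other matrix genes had 12 of 24 higher with a median of 0.07. Lamc1, a laminin chain of vessel basement membranes, ranged from 3.96 to 15 CPM in susceptible, from 4.84 to 24.8 CPM in resilient and from 0.0413 to 4 CPM in non-defeated libraries, with a log2 difference of 1.62 ± 0.51 (SE; limma-trend, adjusted p = 0.854). Col3a1, a fibrillar collagen, had 1.26 ± 0.47, with resilient replicate 2 and non-defeated replicates 3 and 4 at 0 reads. The score of endothelial and mural cell genes was -0.71 to 0.30 in susceptible, -0.45 to -0.20 in resilient replicates 1 to 3, 2.26 in resilient replicate 4 and -0.46 to 0.10 in non-defeated libraries. The part of vessel content in the matrix values was not tested.

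**Figure D5:**
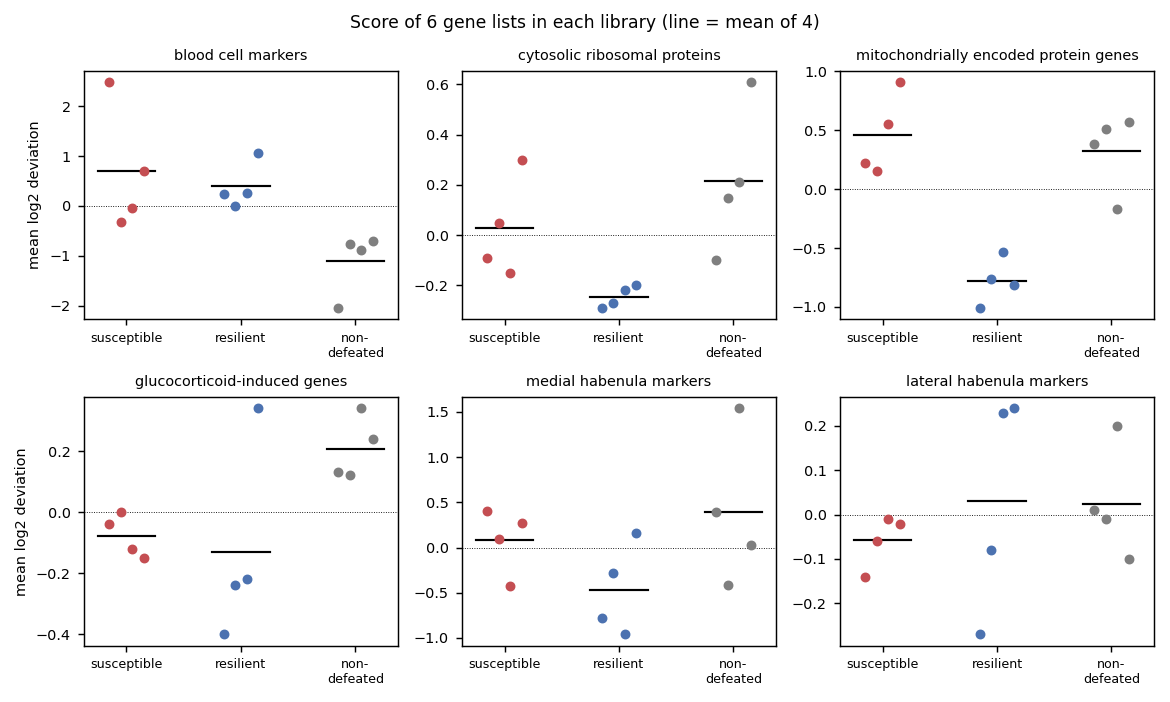
Score of 6 lists in each library, the average log2 deviation of the list's genes from their means over all libraries, for susceptible (red), resilient (blue) and non-defeated (grey) libraries; lines are means of 4. Blood cell markers separate all defeated from all non-defeated libraries, mitochondrial genes are low in resilient libraries only, and the lateral habenula markers stay within -0.27 and 0.24.

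Channels and receptors that shape habenular burst firing gave 16 of 26 higher and a median of 0.10. In 22 of the 26 the direction was the same in both groups, beside 71.1% of all genes. Kcnj3, a subunit of the inward rectifier channels opened by G proteins, which slow neurons when opened, stood at 17.5, 18.2, 15.8 and 8.63 CPM in susceptible, 15.2, 16.5, 22.9 and 15.3 CPM in resilient and 27.3, 23.6, 22.9 and 37.4 CPM in non-defeated libraries. The groups did not overlap, although resilient replicate 3 met the lowest non-defeated library. The fit gave it a log2 difference of -0.75 ± 0.24 (SE; limma-trend, adjusted p = 0.854), -0.87 in susceptible and -0.63 in resilient mice. Hcn4, a pacemaker channel opened by hyperpolarisation and cyclic AMP, averaged 7.68 ± 1.99 CPM in susceptible, 11.7 ± 5.52 CPM in resilient and 4.38 ± 2.73 CPM in non-defeated libraries, with a log2 difference of 1.01 ± 0.35 (SE; limma-trend, adjusted p = 0.854). Non-defeated replicate 1, at 8.45 CPM, overlapped both defeated groups.

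Inhibitory and synaptic genes stayed close to the rest of the table. Genes of GABA synthesis and GABA-A receptors had 6 of 15 higher with a median of -0.06. The receptor subunit Gabra3 had a difference of -0.48 ± 0.20. Synaptic vesicle and release genes had 9 of 22 higher with a median of -0.04. Slc17a7, the vesicular glutamate transporter that is scarce in the lateral habenula and strong in cortex and medial habenula, averaged 63.9 ± 45.0 CPM in susceptible, 41.3 ± 18.5 CPM in resilient and 109 ± 58.2 CPM in non-defeated libraries. Syn2, a synapsin of vesicle clusters that is also on the list of lateral habenula markers, had 0.74 ± 0.30, which was -0.41 among libraries of letter H.

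Markers of the tissue around the nucleus had negative medians in defeated mice, with no member past the adjusted threshold in limma-trend. At an unadjusted p under 0.05, 3 of 13 medial habenula, 1 of 14 thalamus and 0 of 10 choroid plexus and ependymal markers were lower, beside 2.38% of all genes. Medial habenula markers had 11 of 13 lower and a median of -0.46, -0.22 in susceptible and -0.71 in resilient mice. Tac2, the neurokinin B precursor of medial habenula neurons, stood at 21.2, 30, 16.9 and 29.8 CPM in susceptible, 7.39, 8.69, 12.7 and 20.7 CPM in resilient and 32.8, 17.6, 118 and 59.8 CPM in non-defeated libraries. Chrna3, a nicotinic receptor subunit of the same cells, was at 108 CPM in non-defeated replicate 3 and at 2.13 to 43.2 CPM in all others. The list's score was -0.43 to 0.40 in susceptible, -0.96 to 0.16 in resilient and -0.41 to 0.39 in non-defeated libraries other than replicate 3, which reached 1.54. Without that library the median was -0.17, and among libraries of letter H it was -0.07.

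Thalamus markers had 12 of 14 lower with a median of -0.32, which was -0.08 without non-defeated replicate 4. Adarb1, an RNA-editing enzyme, was at -0.54 ± 0.20 and Calb1, the calcium buffer calbindin, at -0.44 ± 0.29. Choroid plexus and ependymal markers had 8 of 10 lower with a median of -0.34. Ttr, the transthyretin of choroid plexus, ran from 2.29 to 83.2 CPM in susceptible, from 12.2 to 126 CPM in resilient and from 18.7 to 185 CPM in non-defeated libraries. Levels of these markers spread widely within each group, and the part of neighbouring tissue in the values of single genes was not tested.

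Glial lists were mixed in direction. Oligodendrocyte genes had 7 of 12 higher with a median of 0.07, which was -0.16 without the 3 libraries of lowest correlation. Mbp, myelin basic protein, was at 0.43 ± 0.16 while Cldn11, a myelin claudin, was at -0.43 ± 0.18. Precursor cells had 5 of 9 higher with a median of 0.19, which was -0.04 without resilient replicate 4, -0.17 without non-defeated replicate 4 and -0.35 without the 3 libraries of lowest correlation. Pdgfra, their growth factor receptor, was at 0.66 ± 0.27. Olig2, a transcription factor of the lineage, was at 1.48 ± 0.66, but -0.57 among libraries of letter H. Astrocyte markers had 7 of 12 higher with a median of 0.04, which was -0.24 without the 3 libraries of lowest correlation. Gfap, their filament protein, was at -0.78 ± 0.29 with non-defeated replicate 2 at 341 CPM against 103 to 122 CPM in the rest of its group, and Fgfr3 was at -0.40 ± 0.21.

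Immune lists were likewise mixed. Microglia markers had 4 of 12 higher with a median of -0.07, and the resting-state receptor Cx3cr1 was at -0.79 ± 0.29 while Trem2, a lipid-sensing receptor, was at 0.52 ± 0.27. Interferon response genes had 9 of 14 higher with a median of 0.14, and Ifit3, an interferon-induced antiviral gene, was at -0.51 ± 0.29. Endothelial and mural cell genes had 8 of 12 higher with a median of 0.08. Their leading members Flt1 and Vtn were at 1.36 ± 0.70 and 0.42 ± 0.27, with resilient replicate 4 at 80.8 and 95.8 CPM. Inflammation genes could be tested for 9 of 18 members, 5 of them higher, with a median of 0.06. Interleukin 1 beta, interleukin 6 and tumour necrosis factor were not among the genes tested. Nfkb1, a transcription factor of this response, was at -0.52 ± 0.37 and Tlr2, a receptor for bacterial lipoproteins, at 0.33 ± 0.51. In limma-trend no member of the 28 lists passed an adjusted p of 0.05 for defeated against non-defeated mice. DESeq2 called 5 of the members, namely Acan, Rps2, Tac2, Brs3 and Alas2, beside 34 of all 17111 genes.

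Values within title letter H compare susceptible replicates 1 and 2 with the 4 non-defeated libraries. All 24 named genes kept their direction there, and also with the letter as a term in the fit. They had been chosen by p and direction on libraries that include these, so this is no independent support. For genes without overlap the direction within the letter was set in advance. The log2 differences within letter H were 0.61 for Brd7, 2.02 for Abcc4, 1.67 for Pcdhb11, 0.84 for Adcy2, 0.69 for Ispd and 2.22 for Hba-a2 on the higher side. On the lower side they were -1.59 for Brs3, -1.07 for Nfatc2ip, -1.51 for Shq1 and -0.94 for Kat6a. These 10 genes without overlap had differences within the letter that were within 1.5 times those over all libraries, except Adcy2. With the letter as a term, Kat6a was at -0.57 and Shq1 at -0.88, against -0.94 and -1.37 over all libraries, and Anks6, whose groups overlapped, was at 1.09 against 2.03. Among the rest, Sik3 was at 0.46, Sh3d19 at 0.38 and Ctnnd2 at 0.44 within the letter and at 0.60, 0.32 and 0.55 with it as a term, under the values over all libraries. Within the letter mt-Rnr1 and mt-Rnr2 were at -0.17 and -0.21. With it as a term they were at -0.82 and -0.88, larger in size than the -0.65 and -0.58 over all libraries. Ergic1, Vma21, Mt1 and Rps2 were at -0.33, -0.41, -0.28 and -0.41 within the letter. With it as a term these 4 were at -0.81, -0.68, -0.61 and -0.7, again larger in size than over all libraries. No gene passed the adjusted threshold within the letter.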

How the data were processed

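The deposited table gives 12 columns of CPM, per the file headers named read counts, made by the authors from reads assigned with featureCounts on GRCm38 (mm10) and tested with edgeR, per the submitters' processing notes. The sources used here name no aligner, no versions and no strand setting. A constant of 0.006078 in every column was subtracted, after which every value (100%) was a whole number of reads to within 0.001. The interaction ratio per mouse was deposited by the authors in a separate sheet, with no definition of the ratio. The deposited log2 ratios, likelihood score, p-values and FDR of the authors were not used here.

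Identifiers of 17402 genes matched GENCODE M21 and 14 did not. filterByExpr (minimum count 10) removed 305 genes. CPM were TMM-scaled (edgeR 4.0.16, R 4.3.3), a pseudocount of 1 added, and 3 group means fitted with robust limma-trend (limma 3.58.1) over 12 libraries, with Benjamini-Hochberg adjustment over all tested genes. DESeq2 1.42.0, edgeR and voom were run on recovered reads as alternatives, as were other size factors, pseudocounts, filters, the title letter and leaving out each library. The code was tested on simulated data.

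Named genes are the 12 higher and 12 lower with the smallest p among those averaging at least 0.5 CPM with 1 direction in both defeated groups and a symbol that is not a predicted gene's, with up to 2 per list (the rule allowed more), Pcsk5 and Acan. The other blood genes, the habenular markers and Capn3 were added after their values were seen. Members and lists were chosen with earlier results of these data known. Libraries of 1 group differed beyond sampling noise (lowest chi-square per degree of freedom 72.2). Floors of 3 reads cover counting error alone, as no molecular identifiers were used. Promoter sequences of genes on chromosome 18 were not used here. A few list members are not reported here.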

Additional observations from a re-analysis of the deposited data

Results flagged for a closer look

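In groups of 4 libraries, a library was singled out when its gap to the nearest other passed Dixon's 95% critical value as a share of the group's range. Chance alone gives this in about 1 in 20 groups of normally distributed values. Where all other libraries of a group have no read, any read passes, as for Tshb and Fosb in susceptible mice. The flags were not set against the number of groups searched. For genes, gap and range were taken on log2(CPM + 1). All levels here are in CPM. Resilient replicate 4 stood apart for Vtn (95.8), Kat6a (18.3) and Rps27 (15.8), and it had the interaction ratio of 2.24 that stood apart from its group. Resilient replicate 1 was low for Fgfr3 (82.9), replicate 2 was high for Nfatc2ip (0.387), and replicate 3 was low for Gabra3 (24.9) and had no read of Fosb (0.0).

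Susceptible replicate 3 was high for Fosb (1.14) and for Tshb (0.0531), and low for Cldn11 (27.3) and Bhlhe41 (11.3). Susceptible replicate 1 was high for Nfatc2ip (0.573), replicate 2 low for Pdgfra (22.6), and replicate 4 high for Gfap (111) and low for Nfkb1 (3.03). Among non-defeated libraries, replicate 4 was high for Cox7c (98.8) and Pomc (5.59) and low for Dbp (10.9). Non-defeated replicate 2 was high for Gfap (341) and Col3a1 (0.746) and low for Kat6a (20.2) and Calb1 (141). Non-defeated replicate 1 was high for Pcsk5 (8.71) and replicate 3 low for Ifit3 (14.6).

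The named genes mt-Rnr1 and mt-Rnr2 differed between the defeated groups by a test of the difference itself. Susceptible minus resilient was 1.19 for the first of them and 1.13 for mt-Rnr2 on the log2 scale (limma-trend, adjusted p = 0.0421 and 0.0469). The susceptible minus non-defeated difference was -0.06 and -0.02 for the same genes.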

How the results depend on the processing

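The count of genes called for defeated against non-defeated mice was 0 under every alternative run, including the replicate block (0 genes) and each library left out (0 to 0), except DESeq2, which called 34. The labels' replicate numbers do not pair the samples (correlation of deviations -0.194 to 0.127). Genes without overlap, 64 in all, numbered 1729 in letter H alone, 1064 without the 3 libraries of lowest correlation (chosen after seeing the data), and 75 to 288 with 1 library left out, each with fewer libraries to separate. Genes called for susceptible against resilient mice, 9 in all, were 1 with a pseudocount of 0.1, 0 with a pseudocount of 5, 0 with edgeR, 37 with DESeq2, 16 with voom, 0 without the robust step, 0 with the replicate block, 2 without those 3 libraries, and 0 to 10 with 1 library left out; the cause was not tested. All 24 named genes, which had been chosen by p and direction in these data, kept their direction under every alternative that fitted them. Direction turned with the letter as a term for Syn2 (-0.29), Olig2 (-0.54), Timp2 (-0.24), Gabra3 (0.00306) and Nfkb1 (0.02), in letter H alone for Syn2 (-0.41), Calb1 (0.07), Olig2 (-0.57), Timp2 (-0.14) and Nfkb1 (0.06), and without the 3 libraries for Hapln2 (-0.01) and Tlr2 (-0.44). Depth limits scarce genes, as 1 read was worth 0.0209 to 0.03 CPM.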

Other observations

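Other genes separated all 8 defeated from all 4 non-defeated libraries, and those named here were chosen after their values were seen. Fmr1, which encodes the RNA-binding protein lost in fragile X syndrome, stood at 45.5, 44.4, 54.2 and 61.7 CPM in susceptible, 57.9, 71.4, 49.7 and 76.4 CPM in resilient and 44.1, 40.6, 24.3 and 27.4 CPM in non-defeated libraries. Its lowest defeated library nearly met the highest non-defeated one, and the log2 difference was 0.76 ± 0.20 (SE). Exoc7, a subunit of the exocyst that tethers vesicles, was between 72.3 and 106 CPM in defeated and between 58.3 and 71.3 CPM in non-defeated libraries. Arglu1, a regulator of splicing and nuclear receptor activity, was between 21.3 and 56.3 CPM in defeated and between 13.0 and 17.4 CPM in non-defeated libraries. Acadm and Dlat, mitochondrial enzymes of fatty acid and pyruvate oxidation encoded in the nucleus, had differences of 0.43 ± 0.14 and 0.20 ± 0.10 (SE). Fcgr3, an Fc receptor of microglia and macrophages, ranged from 11.5 to 31.2 CPM in defeated and from 6.93 to 10.6 CPM in non-defeated libraries.

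On the lower side, Nsg2, a neuronal protein of endosomes and AMPA receptor traffic, ranged from 265 to 509 CPM in defeated and from 517 to 626 CPM in non-defeated libraries, with a log2 difference of -0.46 ± 0.13 (SE). Kcnip3, a calcium sensor that binds A-type potassium channels, ranged from 64.0 to 109 CPM in defeated and from 117 to 163 CPM in non-defeated libraries. Col9a2, a collagen chain, ranged from 7.84 to 18.5 CPM in defeated and from 18.7 to 26.1 CPM in non-defeated libraries. None of these genes passed an adjusted p of 0.05 in limma-trend.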
